A study of Mus musculus with 9 samples.

Results

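Bone marrow (BM) of mice that had received a BM transplant (BMT) was compared with BM of healthy mice (Health) by RNA-seq, which counts sequenced fragments gene by gene. The comparison covers 6 of the 9 mice of the study, 3 BMT and 3 Health, chosen by their group labels. The BMT mice were wild-type C57BL/6J recipients of the CD45.2 type, 16 weeks old at transplantation, which were given 9.5 Gy of gamma rays in a split dose and, on the following day by the methods, 500000 BM cells carrying CD45.1 or the ZsGreen reporter from neonatal or young adult donors. The Health mice were healthy mice of matched age. The other 3 mice had the same irradiation and received cells isolated from costal cartilage (isoCDSCs-T). They are not the subject here, and their values are given for comparison. They were part of the fit over all 9 mice, however, and so entered the filter, the scaling and the spread behind each p-value. Marrow was taken 2 weeks after transplantation. By the methods, beads split each marrow into CD45+ and CD45- fractions, which entered in equal amounts and were merged at equal depth. The labels mention no such split, so the mixture behind each library is not settled. Donor and recipient transcripts were not told apart in these counts.

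A lethal dose of radiation kills the dividing blood-forming cells of the marrow and damages the stroma, the vessels and the bone surfaces that house them. Transplanted stem and progenitor cells lodge in this niche and rebuild the blood lineages, with myeloid cells and platelets returning early and lymphocytes late. Macrophages clear dead cells, osteoclasts, which are their bone-resorbing relatives, remodel the bone surface, and erythroid precursors make up a large share of the nucleated marrow. In bulk RNA, fewer cells of a type and less RNA per cell cannot be told apart.

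The gene names of the table had to be checked before any of them could be read. Among genes that define marrow cells, each of the 9 mice had a count of 0 for the globins Hbb-bs and Hbb-bt and for the neutrophil proteins S100a8 and Camp, and at most 3 for the neutrophil genes Ngp, Mpo and Elane. Some markers did carry counts, such as the globin Hba-a1 (269 to 2550) and the leukocyte gene Ptprc (646 to 1497). The entry with the most counts was instead Olfr648, an olfactory receptor gene, with 302211, 302354 and 382109 counts in the BMT mice and 473651, 550919 and 177620 in the Health mice. In the GRCm38 annotation Olfr648 starts 351.1 kb from Hbb-bs on chromosome 7. Itga2b, a platelet integrin gene with the third most counts, starts 104.5 kb from the red-cell gene Slc4a1. A set of 950 nuclear genes was taken by the names of widely expressed families (ribosomal, proteasome, mitochondrial import, splicing and similar genes). Not every member of these families is itself widely expressed. Of the 950, 340 (35.8%) reached a mean of 50 counts, or 1000 for ribosomal protein genes. Most nuclear entries therefore cannot be taken to hold the transcripts of the gene they name. Why the names and counts disagree was not tested.

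These genes passed with 1 failure on 3 stretches of the genome, found by a rule that was set after the counts had been seen. The stretches run from 3831334 to 59025573 on chromosome 4, from 3498382 to 30896794 on chromosome 6 and from 8109273 to 36796929 on chromosome 15, in GRCm38. Within them 34 of 35 such genes (97.1%) passed, against 306 of 915 (33.4%) elsewhere, a gap that the rule itself produces. Families that marrow should leave silent (olfactory, vomeronasal and taste receptors, defensins, keratin-associated proteins), which the rule did not use, had 0 of 17 members at 50 counts or more inside the stretches and 95 of 1861 (5.1%) outside, and 17 members are too few to tell the stretches from the rest. Marker genes on the stretches carried counts under their own names, among them the erythroid gene Hemgn, with a mean of 19400 counts, the B-cell gene Pax5, with 4240, and the collagen gene Col1a2, with 26600. The adipocyte hormone gene Lep had a mean of 0.333 counts. Genes are described by name below for these 3 stretches, which hold 1355 listed names, and for the mitochondrial genome. All other entries are given by their names in the table, and a list title or known role attached to such a name is not taken to describe the counts under it.

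**Figure D1:**
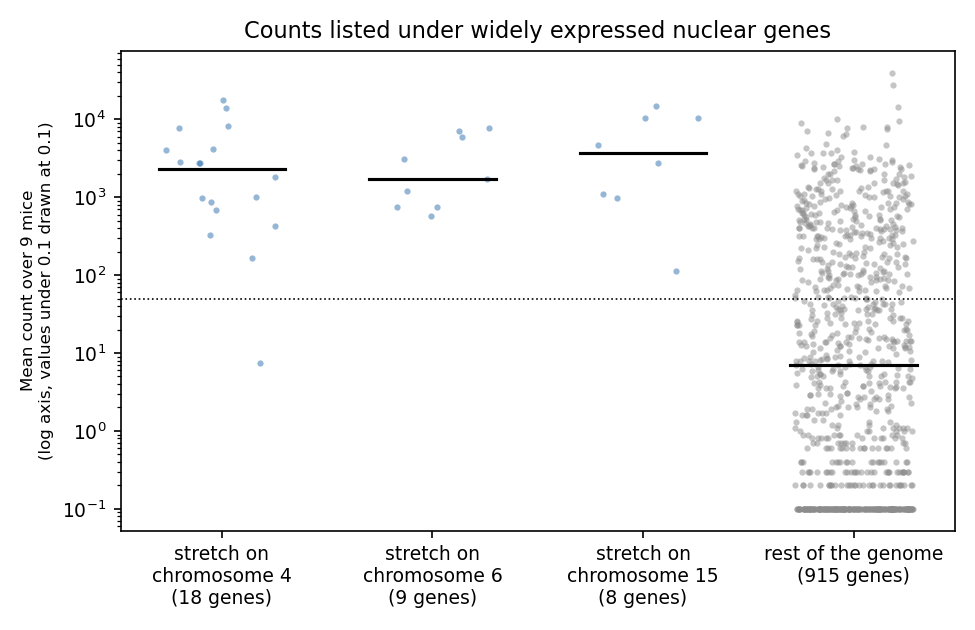
Mean count over 9 mice (log axis) listed under each of 950 nuclear genes of widely expressed families, for the 3 stretches and for the rest of the genome. Points are genes, bars are medians and the dotted line marks 50 counts. On the stretches 34 of 35 genes pass, whereas in the rest of the genome 306 of 915 do.

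The libraries held 8971467 to 9882081 counts in BMT and 8938925 to 10121990 in Health. By these totals 3 counts equal 0.296 to 0.336 CPM (counts scaled to a common library size), a limit that covers counting error only. The CPM values printed here use TMM library sizes, with factors of 0.94 to 1.06 in these mice, which shift this limit. BMT and Health differed in 307 of the 12572 entries tested with edgeR's quasi-likelihood test at an adjusted p under 0.05 (2.44%), of which 125 were higher (0.994%) and 182 lower (1.45%) in BMT. With scaling by library size alone 151 were higher and 141 lower, and the median log2 fold change of all entries moved from -0.02 to 0.07. In each of the 307 entries all 3 BMT mice lay on the same side of all 3 Health mice. Over the whole table such a separation was seen in 3661 entries (29.1%), 1914 higher (15.2%) and 1747 lower (13.9%) in BMT, so most of the separated entries did not pass the test. Nothing in the labels says more than that the 3 mice of a group were separate samples, so the p-values measure the spread between such samples. That spread was pooled over all 3 groups, and the isoCDSCs-T mice were the most scattered. Their mean distance from each other (root mean square difference per entry in log2 CPM) was 0.778, against 0.534 within BMT and 0.554 within Health. With the BMT and Health mice alone, 807 of 11919 entries were called. The part of this scatter in single calls was not tested. Among the 307 entries differences were often large. The median log2 fold change was 2.2 among entries that were higher and -1.55 among those that were lower. The entries that were higher had a median level of 6.85 CPM and those that were lower 24.0 CPM. The count of 307 fell to 105, 102 and 127 without BMT mouse 1, 2 or 3. It fell to 120, 149 and 212 without Health mouse 1, 2 or 3. Of the 307 entries, 76 were called in all 6 of these fits. Of the 302 called entries with a GRCm38 position, 66 had another entry called in the same direction within 100 kb, so 307 entries need not be 307 transcripts.

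**Figure D2:**
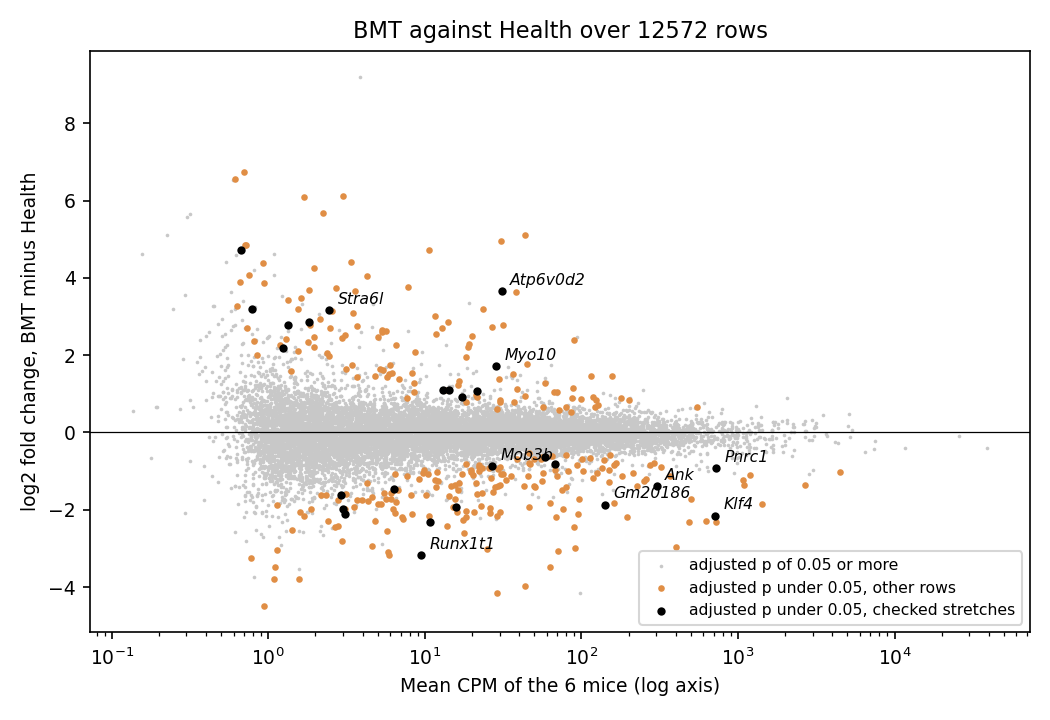
log2 fold change (BMT minus Health) of each of the 12572 entries against its mean CPM in the 6 mice (log axis). Coloured points have an adjusted p under 0.05, and black ones, some with their names, lie on the 3 checked stretches, where Atp6v0d2 (3.66) and Klf4 (-2.15) stand out for their level.

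On the checked stretches 26 of 422 genes tested differed (6.16%), 12 higher (2.84%) and 14 lower (3.32%) in BMT. The 3 BMT mice lay apart from the 3 Health mice in 173 of the 422 (41%), 97 of them higher (23%) and 76 lower (18%). The median log2 fold change of the 422 was 0.02. They are named here with their values known, Klf4 included, which is also a member of the monocyte and macrophage list. Without a BMT mouse, 7, 8 or 10 of the 26 calls remained (leaving out mouse 1, 2 or 3), and without a Health mouse 8, 11 or 12. Atp6v0d2, Gm20186, Klf4, Stra6l, 4930412C18Rik and Fsd1l were called in all 6 of these fits.

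The higher gene with the lowest p was Atp6v0d2, which encodes the d2 subunit of the proton pump with which osteoclasts acidify bone and macrophages their lysosomes. It was at 52.9, 63.1 and 56.0 CPM in the BMT mice and at 3.58, 3.36 and 6.55 CPM in the Health mice. The lowest BMT mouse thus lay far above the highest Health mouse, a 12.7-fold difference (log2 fold change 3.66, SE 0.26, edgeR adjusted p = 1.53e-04). The isoCDSCs-T mice had 53.3, 44.2 and 65.4 CPM. Atp6v1f, another subunit of the same pump, did not pass the test, at a log2 fold change of 0.02 (SE 0.16, edgeR adjusted p = 0.96). Laptm4b, a transmembrane protein of lysosomes, was higher at 17.9 ± 3.53 CPM against 8.26 ± 1.29 CPM (mean ± SD, n = 3 each, edgeR adjusted p = 0.049), and this call was lost without each mouse in turn.

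Of the genes that were higher, 4 encode proteins of the cytoskeleton or of membrane shape, a grouping made after the values were seen. Myo10, an unconventional myosin of filopodia, was at 46.0, 39.8 and 45.8 CPM in BMT and at 12.5, 13.5 and 13.8 CPM in Health. The mice of each group lay close together and the 3.30-fold gap was wide against that spread (log2 fold change 1.72, SE 0.29, edgeR adjusted p = 0.0144), although the call was kept in 1 of the 6 fits without a mouse, with an adjusted p of up to 0.0786 in the others. Cav1, the main coat protein of caveolae and abundant in endothelial cells and adipocytes, was low in all mice, at 2.28, 2.07 and 1.82 CPM in BMT and 0.477, 0.526 and 0.317 CPM in Health (edgeR adjusted p = 0.0257). Cav2, its partner in caveolae, had a log2 fold change of 0.60 (SE 0.39, edgeR adjusted p = 0.481). Rai14, an actin-binding protein, was 1.88-fold and Ctnnal1, a relative of alpha-catenin, 2.13-fold higher, with adjusted p of 0.0427 and 0.0368 in edgeR. The calls of Cav1, Rai14 and Ctnnal1 were lost without each mouse in turn.

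Metabolic genes and a receptor were also among the genes that were higher. Stra6l, a membrane receptor for retinol-binding protein, had 3.80, 5.17 and 4.30 CPM in BMT and 0.835, 0.315 and 0.317 CPM in Health. All 3 Health mice were under 1 CPM, and the fitted difference was 9.01-fold (log2 fold change 3.17, SE 0.42, edgeR adjusted p = 0.00473). Pdk4, the kinase that shuts off pyruvate dehydrogenase when cells burn fat, was at 2.6, 2.90 and 4.21 CPM in BMT and 0.119, 0.946 and 0.211 CPM in Health (log2 fold change 2.86, SE 0.61, edgeR adjusted p = 0.0386). Its level was 11.6, 4.88 and 7.53 CPM in isoCDSCs-T. Coq3, a methyltransferase of ubiquinone synthesis, was at 29.1 ± 3.65 CPM in BMT and 13.9 ± 0.474 CPM in Health, with no overlap of the mice (edgeR adjusted p = 0.0392). Pdk4 kept its call in 1 of the 6 fits without a mouse, that without Health mouse 2, in which its log2 fold change was 4.17, and Coq3 in 0.

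Tmeff1, a transmembrane protein with follistatin-like domains, was at 0.543, 1.76 and 2.01 CPM in BMT and had 4 counts in the Health mice together. It passed in edgeR with an adjusted p of 0.0482, but rests on few counts and kept its call in 1 of the 6 fits without a mouse. D630039A03Rik, a gene of no known role, was at 2.33 ± 0.551 CPM in BMT and 0.321 ± 0.204 CPM in Health (edgeR adjusted p = 0.026), and kept its call in 1 of these fits, with an adjusted p of up to 0.112 in the others.

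Regulators of transcription were among the genes that were lower. Klf4, a zinc-finger transcription factor that drives the formation of monocytes and restrains division in several cell types, was at 258, 268 and 260 CPM in BMT and at 1080, 1090 and 1310 CPM in Health. The BMT mice were almost level with each other, and Klf4 was 4.43-fold lower (log2 fold change -2.15, SE 0.26, edgeR adjusted p = 0.00278). The isoCDSCs-T mice had 416, 245 and 182 CPM. Runx1t1, a co-repressor known as a fusion partner of RUNX1 in leukaemia, was at 1.30, 1.34 and 2.97 CPM in BMT and spread widely over 15.9, 30.2 and 5.18 CPM in Health. It passed with a log2 fold change of -3.17 (SE 0.64, edgeR adjusted p = 0.0313), and kept its call in 1 of the 6 fits without a mouse, that without Health mouse 3, while without Health mouse 2 the change was -2.47 with an adjusted p of 0.109. Pnrc1, a coactivator of nuclear receptors and one of the more abundant transcripts here, was at 540, 517 and 432 CPM against 990, 848 and 1010 CPM, a 1.91-fold difference (edgeR adjusted p = 0.0318) that was lost without each mouse in turn.

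Among the lower genes were also receptors and a transporter. Epha7, a receptor for ephrins, was at 0.868, 1.34 and 1.24 CPM in BMT and 5.13, 5.15 and 4.75 CPM in Health. The Health mice were nearly equal, and the gene was 4.30-fold lower in BMT (log2 fold change -2.10, SE 0.32, edgeR adjusted p = 0.00823), with an adjusted p of 0.0559 without BMT mouse 1. Npr2, the receptor of C-type natriuretic peptide, was 2.77-fold lower (edgeR adjusted p = 0.0198), a call kept in 2 of the 6 fits without a mouse. Ank, which carries pyrophosphate out of cells and so restrains mineral deposition, was at 150, 168 and 187 CPM in BMT and 489, 539 and 286 CPM in Health (log2 fold change -1.38, SE 0.26, edgeR adjusted p = 0.0226), and kept its call in 1 of these fits. Ank overlaps Otulin on the other strand, and no strand setting is given, so reads of the shared part cannot be told apart. Otulin itself had a log2 fold change of -0.13 (SE 0.11, edgeR adjusted p = 0.603).

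The other lower genes encode signalling proteins or have no known role. Mob3b, of the MOB family of kinase activators, was at 19.0, 19.0 and 19.2 CPM in BMT and 34.8, 33.0 and 37.2 CPM in Health. This small difference of 1.83-fold stood out for its even levels (log2 fold change -0.87, SE 0.13, edgeR adjusted p = 0.00742), and the adjusted p was 0.0588 without BMT mouse 1 and 0.0536 without BMT mouse 2. Fsd1l, a protein with fibronectin and SPRY domains, was at 6.08, 5.79 and 7.75 CPM against 26.5, 33.4 and 15.3 CPM (edgeR adjusted p = 0.00733). Osgin2, a homologue of an oxidative stress-induced growth inhibitor, and Bmt2, which senses S-adenosylmethionine upstream of mTORC1, were 1.76-fold and 1.56-fold lower, with adjusted p of 0.0258 and 0.0457 in edgeR. Osgin2 kept its call in 1 of the 6 fits without a mouse, and it overlaps the pseudogene Gm11870 on the same strand. Bmt2 lost its call without each mouse in turn, and its adjusted p was 0.0871 with scaling by library size alone.

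The lincRNA Gm20186, at 18845910 to 18848207 on chromosome 6, was at 60.3, 54.2 and 67.9 CPM in BMT and 246, 246 and 175 CPM in Health. It was the second gene of the stretches by p, 3.65-fold lower in BMT (log2 fold change -1.87, SE 0.18, edgeR adjusted p = 5.55e-04). The isoCDSCs-T mice lay between the groups, at 140, 136 and 108 CPM. It overlaps another lincRNA, Gm26809, on the other strand. The transcript 4930412C18Rik was 3.99-fold lower (edgeR adjusted p = 0.0072). Gm37689 lies on the same strand inside Sdcbp, and 1700060J05Rik lies opposite Slc44a1, so the 4.95-fold and 3.09-fold lower levels of these entries may include reads of their hosts. Their calls were kept in 1 and 0 of the 6 fits without a mouse. Sdcbp and Slc44a1 had log2 fold changes of -0.19 (SE 0.13) and -0.62 (SE 0.16) and did not pass the test (edgeR adjusted p of 0.502 and 0.0749).

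**Figure D3:**
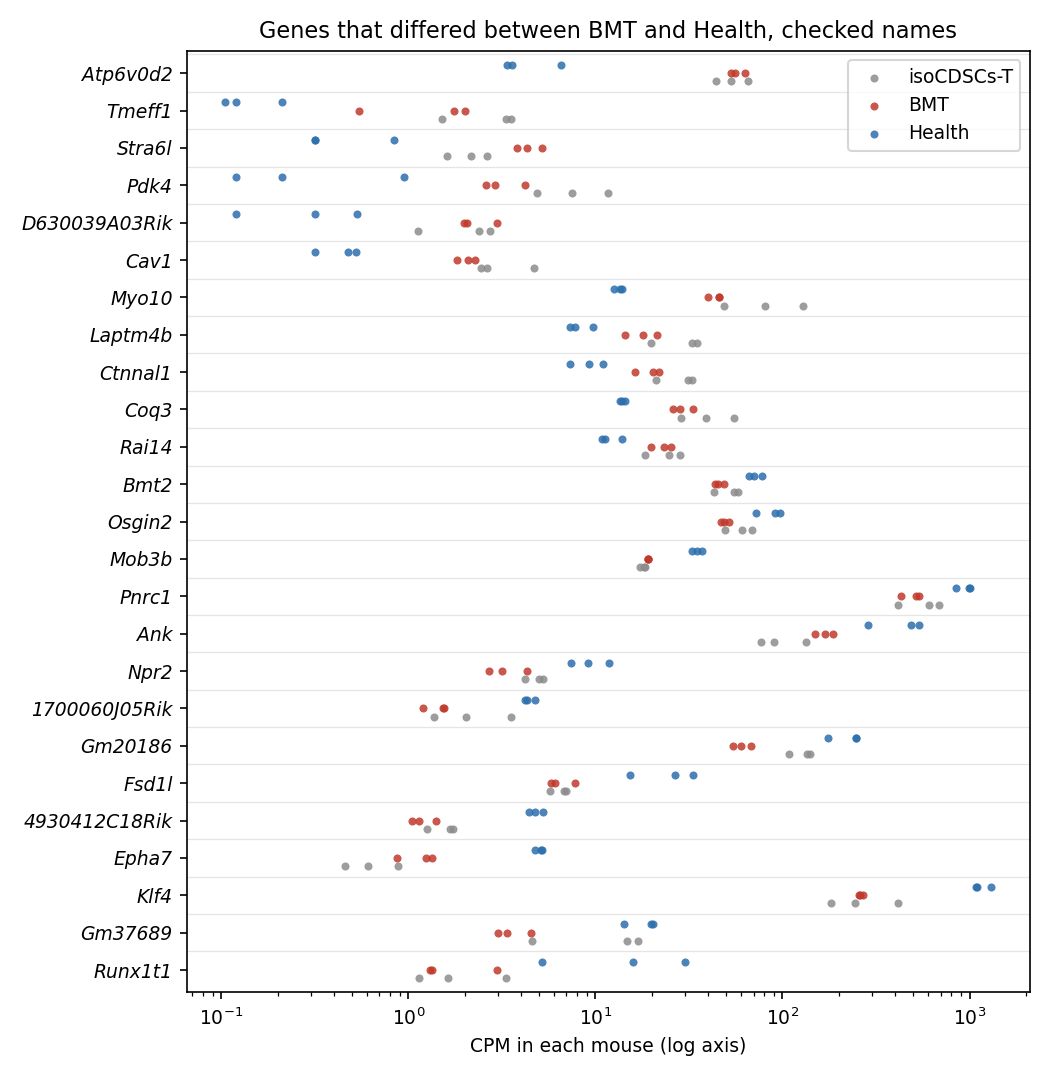
CPM in each mouse (log axis) of 25 of the genes on the checked stretches with an adjusted p under 0.05, those with at least 3 counts in each group, ordered by log2 fold change, with BMT in red, Health in blue and isoCDSCs-T in grey. In all 25 genes the 3 red points lie to 1 side of the 3 blue ones, with the widest gaps among abundant genes in Atp6v0d2 (57.3 against 4.50 CPM) and Klf4 (262 against 1160 CPM).

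Of the 18 members of lineage and process lists that lie on the stretches and passed the filter on low counts, 1 was called, Klf4 (5.56%, against 6.16% of all 422 genes tested there). Hemgn, a nuclear protein of erythroid precursors, was at 1640, 1730 and 1880 CPM in BMT and 3380, 3250 and 1300 CPM in Health. Tmod1, which caps actin in the red-cell membrane skeleton, was at 235, 245 and 245 CPM in BMT and 447, 449 and 161 CPM in Health. In both genes Health mice 1 and 2 lay above the BMT mice and Health mouse 3 below them, and neither passed the test (edgeR adjusted p of 0.452 and 0.509). The same mouse was the lowest of the Health group in Fsd1l, Ank, Runx1t1 and Gm20186, and in the mitochondrial ribosomal RNAs below, though not in Klf4, Pnrc1, Mob3b or Osgin2. The part of erythroid content in the former genes was not tested.

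The 4 genes of B-lineage lists on the stretches spread widely among the transplanted mice. Pax5, the factor that commits cells to the B lineage, was at 301, 148 and 586 CPM in BMT against 253, 357 and 237 CPM in Health. Bach2, another B-cell factor, was at 179, 54.6 and 288 CPM against 112, 154 and 110 CPM. Il7r, the receptor chain that early B and T cells depend on, was at 107, 59.9 and 182 CPM against 53.6, 75.7 and 58.0 CPM. In these genes, and in the B-cell surface gene Cd72, BMT mouse 2 was the lowest of its group and BMT mouse 3 the highest, so that the range of the BMT mice enclosed all 3 Health values in Pax5, Bach2 and Cd72 and 1 of 3 in Il7r. The adjusted p lay between 0.421 for Il7r and 0.942 for Cd72 in edgeR. These p-values also rest on the isoCDSCs-T mice, whose SD was the largest of the 3 groups in all 4 genes. In Pax5 the isoCDSCs-T mice were at 1560, 348 and 80.6 CPM.

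The other markers on the stretches did not pass the test. The cell-cycle genes Ccne2 and Smc2 had log2 fold changes of -0.31 (SE 0.22) and -0.27 (SE 0.20), and the p53 target Trp53inp1 of 0.06 (SE 0.31). Ddx58, the RIG-I sensor of viral RNA and an interferon-induced gene, was at 263, 229 and 198 CPM in BMT and 176, 170 and 195 CPM in Health, which do not overlap but gave an adjusted p of 0.422. The ribosomal protein genes Rps20 and Rpl30 changed by 0.26 (SE 0.14) and 0.04 (SE 0.13) on the log2 scale. Col1a2, the collagen chain of osteoblasts and fibroblasts, was at 493, 617 and 1630 CPM in BMT and 198, 2630 and 136 CPM in Health, so that 1 healthy mouse exceeded all BMT mice. How much stroma and bone entered each library was not tested.

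**Figure D4:**
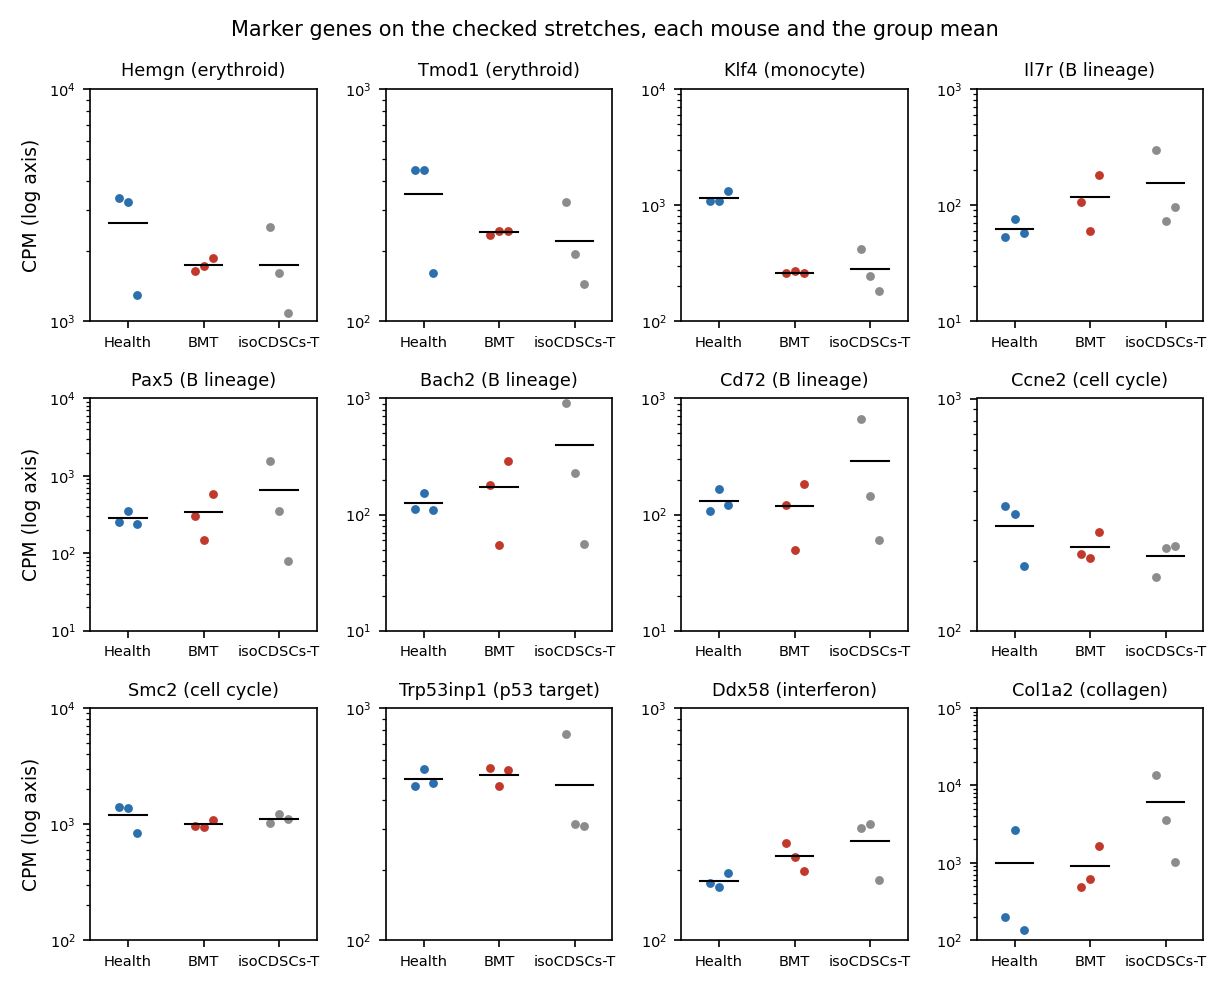
CPM (log axes) in each mouse of 12 marker genes on the checked stretches, with bars for group means of 3 mice. Klf4 separates BMT from Health, whereas Hemgn and Tmod1 are split within Health and Pax5, Bach2, Cd72 and Il7r spread within BMT.

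Of the 23 mitochondrial names tested, 1 was called (4.35%, against 2.44% of all entries), the ribosomal RNA mt-Rnr1, at 685, 765 and 827 CPM in BMT and 1970, 1950 and 1010 CPM in Health (log2 fold change -1.11, SE 0.25, edgeR adjusted p = 0.0453). The second ribosomal RNA, mt-Rnr2, had a log2 fold change of -1.07 (SE 0.26) and an adjusted p of 0.0654. The call of mt-Rnr1 was kept in 1 of the 6 fits without a mouse, that without Health mouse 3, with an adjusted p as high as 0.182 in the others, and it was lost with scaling by library size alone (adjusted p = 0.0504). The libraries were made by poly(A) capture, so these RNAs were not the target of the assay. Of the 13 protein-coding genes 0 were called in edgeR or DESeq2, 2 had an unadjusted p under 0.05, and their median log2 fold change was 0.12. Together they took 3.88 to 4.53% of the normalized counts in BMT, 3.55 to 4.53% in Health and 5.98 to 6.76% in isoCDSCs-T. Most of each sum came from mt-Co1, at 23000, 25200 and 27200 CPM in BMT, 29300, 29100 and 21700 CPM in Health and 34000, 43000 and 38900 CPM in isoCDSCs-T.

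Over the whole table, 280 of the 12127 entries outside the stretches and the mitochondrial genome were called (2.31%), 113 higher (0.932%) and 167 lower (1.38%). The lowest p-values belonged to Gpnmb, at 79.7, 89.5 and 85.6 CPM in BMT and 1.79, 1.68 and 3.80 CPM in Health, and Malsu1, whose start lies 37.2 kb away, at 56.2, 67.9 and 54.8 CPM against 0.955, 2.00 and 2.75 CPM. Both differed about as strongly, with log2 fold changes of 5.12 (SE 0.30) and 4.95 (SE 0.32), and were called in all 6 fits without a mouse. Mmp12 was at 18.2, 24.1 and 18.9 CPM against 0.119, 0.526 and 1.58 CPM. Trim40 and Tnrc6a had 0 counts in all Health mice, and were at least 3.7-fold and at least 4.23-fold higher in BMT against a floor of 3 counts per library. Trim40 kept its call in all 6 fits without a mouse and Tnrc6a in 0. Among entries that were lower, Stxbp2 was at 3.04, 1.03 and 5.07 CPM against 68.5, 65.3 and 29.9 CPM, H2-D1 at 4.45, 4.24 and 6.98 CPM against 87.9, 83.2 and 74.6 CPM, and Trbv25 at 8.03, 9.21 and 14.0 CPM against 129, 131 and 88.1 CPM. The called entries with the highest levels were lower in BMT, led by Mrpl38, at 3080, 3060 and 2750 CPM against 6160, 5850 and 5980 CPM, and Mri1, at 1640, 1520 and 1370 CPM against 3860, 3460 and 4340 CPM. These names mark places in the table, and which transcripts the entries hold was not tested.

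Lists of lineage and process genes were also counted over the whole table by name, which describes the names and not the transcripts behind them. Of 485 entries tested that belong to any list other than the mitochondrial one, 18 were called (3.71%, against 2.44% of all entries), 10 higher and 8 lower. Among 16 entries of the monocyte and macrophage list Mrc1 and Cd163 were called higher and Cx3cr1, Fn1 and Klf4 lower, with a median of 0.18 on the log2 scale. Of 33 interferon entries Oas2 and Oas3 were higher, of 19 erythroid entries 2, with Gfi1b among them, of 12 metalloproteinase entries Mmp12, of 37 ribosomal protein entries Rpl27. The neutrophil list had 10 entries tested, with Ltf higher (16, 14 and 11 counts against 0, 1 and 0) and Il1b lower, and the chemokine list 16, with Cx3cr1 and Cxcl16 lower. Fcer2a, of 10 mature B entries, was lower, and olfactory receptor names, 121 of which passed the filter, had 1 entry higher and 2 lower. The other 17 of the 26 lists (megakaryocyte, stem and progenitor, early B, T and NK, cell cycle, p53 targets, stromal niche, adipocyte, endothelial, bone and cartilage, skeletal muscle, immediate early, mitochondrial, sex-linked, immunoglobulin, collagen and Gimap genes) had 0 called entries in edgeR, against 11 of their 229 in DESeq2 and 37 at an unadjusted p under 0.05 in edgeR. List medians ranged from -0.23 for bone and cartilage to 0.55 for immunoglobulin entries. Of the 6 stroma-derived factors measured elsewhere in the study, Cxcl12, Kitl, Adipoq and Sp7 had at most 2 counts in any mouse, and Vcam1 and Spp1 were tested and not called. Apart from Klf4, the called members lie outside the checked stretches.

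The distance of BMT from healthy marrow was measured over all 12572 entries, as the root mean square difference per entry in log2 CPM, which does not depend on the names. The 3 BMT mice were 0.695, 0.741 and 0.752 from the Health mice on average, and the Health mice 0.529, 0.539 and 0.593 from each other. Each of the 9 pairs of a BMT and a Health mouse (0.687 to 0.799) was farther apart than any pair within BMT (0.493 to 0.595) or within Health (0.475 to 0.603). The mean distance between groups exceeded that within groups by 0.185, with p = 0.1 in an exact permutation test over 10 splits of the mice, the smallest p that 3 against 3 can give. On average 13% of the entries differed by at least 2-fold between a BMT and a Health mouse, 7.84% between Health mice and 7.37% between BMT mice. The isoCDSCs-T mice were 0.906 to 1.086 from the Health mice on average. They were also widely spread, at 0.634 to 0.971 from each other. Over the 422 genes of the checked stretches alone, BMT and Health mice were 0.822 apart, against 0.545 within BMT and 0.549 within Health.

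**Figure D5:**
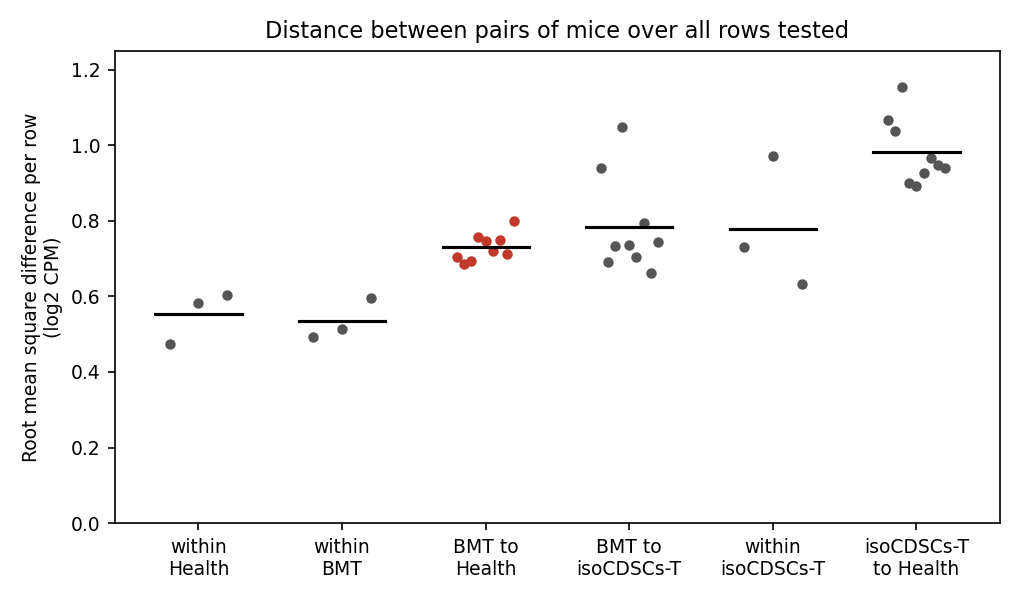
Root mean square difference per entry (log2 CPM, 12572 entries) for each pair of mice, with bars for the means. The 9 pairs of a BMT and a Health mouse, in red, lie at 0.687 to 0.799, above all pairs within Health and within BMT.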

How the data were processed

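BM cells of 9 mice, 3 per group, were profiled by poly(A)-selected RNA-seq. Per the submitters' processing notes the tools were FastQC, MultiQC, Trim Galore and HISAT2 with build GRCm38. Their versions, the annotation and the strand setting are not given in the sources used here. The authors counted fragments per gene with featureCounts and deposited raw counts, and they also deposited TPM values computed from them, which were used here for an alternative distance only. The count table listed 53172 names, and 50565 of them had 1 position in the GRCm38 annotation. Library totals were 8741155 to 10181289 counts.

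Counts were filtered with filterByExpr, normalized by TMM and tested with the quasi-likelihood test of edgeR 4.0.16 in R 4.3.3 over all 9 mice with group as the only term, with Benjamini-Hochberg adjustment at 0.05. CPM values use the TMM library sizes, and log2 CPM a prior count of 2. Fold changes are BMT minus Health on the log2 scale. The SE of a fold change is its size divided by the square root of the F statistic of the test. It is therefore not independent of the p-value. DESeq2 1.42.0 was an alternative. The scripts were tested on simulated data. Other alternatives were the likelihood ratio test, scaling, filters, the 6 mice alone, a replicate block and each mouse left out.

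Named entries were, among those called, the 10 with the largest change each way at 1 CPM or more without overlap, the 5 with the highest level each way, called members and up to 4 members with the lowest p of each gene list, and stroma-derived factors that the study measured by qRT-PCR. Some of them are not reported here. The checked stretches were chosen after the counts were seen, as runs of genes of widely expressed families that reached their minimum count, with a lone failure allowed. The members and lists were chosen with earlier results of these data known.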

Additional observations from a re-analysis of the deposited data

How the results depend on the processing

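The 307 called entries became 709 with DESeq2, 699 with the likelihood ratio test, 948 of 28221 without a filter (492 higher and 456 lower), 807 with the 6 mice alone (365 higher and 442 lower), and 102 to 212 with 1 mouse left out. They stayed within 1.5 times with library size (292), DESeq2 size factors (312), at least 10 counts in every mouse (233) and a log2 change of at least 1 (246). With a replicate block 197 were called, and 11 of the 18 called list members and 13 of the 26 calls on the checked stretches remained. Of the 9 same-numbered pairs of mice 3 correlated above 0.1, and those of BMT and Health lay between -0.24 and -0.02. Pairs with different numbers ranged from -0.42 to 0.43. So few pairs cannot decide whether the numbers pair the mice. Leaving out 1 mouse kept 23 to 36 of the 45 called named entries, 7 to 15 of the 18 list members and 7 to 12 of the 26 on the stretches, 16 of which were called with at least 10 counts in every mouse, where fewer genes were tested. The alternatives for the stretches were added after the data were seen. The excess distance of 0.185 was 0.141 on log2(TPM + 1), 0.235 on scaled TPM, 0.101 over all names with a count and 0.275 on the stretches, and 0.174 to 0.206 with 1 mouse left out. For 27 named genes, counting each gene under each alternative, 226 results stayed the same, 0 reversed and 123 lost their call, mostly with 1 mouse left out. Apart from these, the cause of a change was not tested. With 3 mice a group, 2117 entries had an unadjusted p under 0.05.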
